A study of Mus musculus with 44 samples.

Results

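Genes that build the ribosome were followed through a mouse culture in which multipotent blood progenitors turn toward the B lineage. The set was a list of 40 symbols chosen by function, namely RNA polymerase I subunits, proteins that ride on small nucleolar RNAs, processing factors of each ribosomal subunit and abundant nucleolar proteins. Of these, 39 were found among the 23234 genes of the deposited table, and Noc2l was not analysed here. The 39 genes comprised 4 of RNA polymerase I, 4 of box C/D particles, 5 of box H/ACA particles, 10 of small subunit processing, 11 of large subunit processing and 5 general nucleolar proteins. All 39 passed the filter on low values (1 FPKM in at least 3 libraries), so none was lost before testing. FPKM counts the sequenced fragments of a transcript per length of that transcript and per size of the library.

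The cells were induced leukocyte stem (iLS) cells, derived from C57BL/6J fetal liver, and every group carried the same Id3-ERT2 fusion, an Id3 protein that acts only while 4-hydroxytamoxifen (4-OHT) is bound. The 0 h group came from the maintenance culture, on TSt-4 stromal feeder cells with 40 nM 4-OHT, IL-7 at 20 ng/mL, and both Flt-3L and SCF at 10 ng/mL. All later groups had been moved to TSt-4 cells with 5 ng/mL IL-7 and no 4-OHT, a medium for which the labels list neither SCF nor Flt-3L, so the loss of the drug, the lower IL-7, the absence of both cytokines (if they were left out) and the new feeder culture cannot be told apart. Poly(A) RNA was sequenced in 44 libraries at 16 time points, with 3 libraries at 0, 0.5, 1, 2, 4, 6, 8, 10, 12, 24, 48, 72, 96 and 144 h and 1 library each at 120 and 168 h. The labels do not say that replicates came from separate cultures, so p-values speak only to the spread among the libraries at hand, which may be technical. They also do not say that feeder cells were taken out before RNA was made.

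Ribosome assembly starts in the nucleolus, where RNA polymerase I copies the ribosomal DNA into a long precursor. Box C/D particles guide methylation of that precursor and box H/ACA particles guide conversion of uridine to pseudouridine, while many helicases, nucleases and scaffold proteins fold and cut it into the RNAs of the small and large subunits. The work consumes much of a growing cell's energy, and MYC is well known to switch on many of these genes through E-box DNA words such as CACGTG.

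The CACGTG word was searched in the promoters of the members, and its matches are shown because MYC binds this word. The windows ran from 250 bases before to 50 bases after each start in the RefSeq promoter table for build GRCm38.p6, which is not the build the authors mapped to. The table held 37 windows for 34 of the 39 genes. Each sequence is given on the gene's strand with the word in capitals.
Utp20, chr10:88826765-88826789, minus strand, 37 bases after the start: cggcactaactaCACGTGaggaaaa
Tsr1, chr11:74898092-74898121, plus strand, 24 bases after the start: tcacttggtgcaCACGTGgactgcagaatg
Mybbp1a, chr11:72441355-72441376, plus strand, 40 bases after the start: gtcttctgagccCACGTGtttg
Nop2, chr6:125131811-125131840, plus strand, 60 bases before the start: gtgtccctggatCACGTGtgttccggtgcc
Pes1, chr11:3963965-3963994, plus strand, 2 bases after the start: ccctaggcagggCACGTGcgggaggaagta
Wdr43, chr17:71616220-71616249, plus strand, 17 bases after the start: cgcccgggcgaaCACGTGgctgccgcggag

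CACGTG, which reads the same on both strands, was held by 6 of the 37 member windows (16.2%). The share was 16.9% in the windows of the further ribosome biogenesis genes described below, 9.58% in those of all tested genes and 7.15% in all 32851 windows of the table. CACGCG, searched on both strands, stood in 32.4% of member windows against 16.1% for tested genes. CCGGAAG, a word bound by ETS factors, stood in 27.0% of member windows against 16.0% for tested genes and 49.3% for the further genes. Of the 11 members called higher at 6 h, 9 had a window and 4 held CACGTG (Utp20, Tsr1, Mybbp1a and Nop2). Of the 26 members not called at 6 h, 23 had a window and 2 held it (Pes1 and Wdr43), and neither of the 2 members called lower did. CACGCG stood in 3 of those 9, in 8 of the 23 and in 1 of the 2. Over all tested genes with a window, CACGTG was held by 11.1% of those called higher at 6 h, 12.4% of those called lower and 11.1% of those not called. These are matches of letters, described without a test.

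Summed FPKM per library lay between 516025 and 701705, and no 2 libraries held identical values. Relative depth, read from the smallest values, ranged from 0.551 to 2.27, and replicate pairs correlated across genes at r = 0.893 to 0.944. The table holds no counts, so counting error cannot be given. Progenitor markers matched the label at 0 h, where all 4 (Kit, Flt3, Cd34 and Il7r) were above 1 FPKM and summed to 445 ± 71.5 FPKM (SD, n = 3). Of 24 markers of stromal cells, 21 averaged at least 1 FPKM at 0 h and 22 from 0.5 to 120 h, while Lum was listed at 0 in all 44 libraries and Dcn in 43. For 0, 1, 6, 24, 72 and 144 h in that order, their summed FPKM was 1361 ± 799 (range 716 to 2256), 7137 ± 1344, 9253 ± 609, 8166 ± 800, 6624 ± 1900 and 2458 ± 626. A set of 19 general blood-cell markers, none of them at 0 in any library, summed to 2871 ± 393, 1291 ± 190, 934 ± 24.8, 704 ± 258, 1403 ± 353 and 2220 ± 229 FPKM at the same times (range 2465 to 3248 at 0 h, 908 to 958 at 6 h). Both kinds of cell make ribosomes, so each level below belongs to the mixture of iLS-derived and feeder RNA, in which fewer cells of a type and less RNA per cell cannot be told apart.

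Members were therefore read on 2 scales. On the first, FPKM was used as deposited, which gives a gene's share of the mixed RNA. On the second, each library was divided by the mean level of its blood-cell markers, which asks how a gene moved against those markers. On the second scale the median of all tested genes was itself above 0 h, by 0.81, 1.19, 1.69 and 0.34 (log2) after 1, 6, 24 and 144 h, so members are set against that median. A gene with a positive value below that median rose less than the median gene. Some libraries stood apart. In 24 h replicate 3 the blood-cell markers summed to 419 FPKM against 770 and 923 in the other two, and Ncl, Npm1 and Lyar were high while Nob1 and Polr1c were low. In 0 h replicate 3 the stromal markers summed to 2256 FPKM against 716 and 1112. In 144 h replicate 2 the members summed to 5378 FPKM, against 3395 for the lowest library of that time.

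At 0 h the members were abundant, with a median of 36.0 FPKM against 9.52 FPKM over all tested genes. Npm1, a histone chaperone that also shuttles ribosomal proteins, led with 1332 FPKM, although mouse Npm1 has near-identical pseudogenes and its value may include or lack shared fragments. It was followed by the methyltransferase Fbl at 205, Nop10 at 183, Nop56 at 172 and nucleolin (Ncl) at 166 FPKM. The least abundant were Polr1e at 9.70, Utp20 at 8.73 and Rrp12 at 6.21 FPKM. Summed over the 39 genes, the level was 3336 ± 338 FPKM before the change (SD, n = 3), then 2952 ± 262, 3601 ± 377, 3862 ± 640, 3089 ± 368, 3503 ± 305 and 4182 ± 1053 FPKM after 1, 6, 24, 48, 72 and 144 h. The ranges over libraries overlapped between each of these times and the next, and Npm1 was the largest part of each sum.

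Across the course, members were most often lowest in the first 2 h and highest from 4 to 12 h. The lowest mean fell at 0.5, 1 or 2 h for 22 of the 39 genes, and the highest mean fell between 4 and 12 h for 21. A further 11 were highest at 96 or 144 h, and Polr1e, Nop10 and Nob1 were highest at 0 h. The shares of all tested genes lowest or highest at these times are not given here. This timing is therefore not shown to be particular to the members. The median change from 0 h (log2 of FPKM + 1) was -0.16, -0.14 and -0.02 after 0.5, 1 and 2 h. It was 0.32, 0.25, 0.29 and 0.18 after 4, 6, 8 and 12 h, then 0.14, -0.11 and 0.05 after 24, 48 and 72 h, and 0.23 and 0.30 after 96 and 144 h. Over all tested genes it stayed between -0.11 and 0.06. Scaled to blood-cell markers, the members' median was above 0 h at all 13 later times, from 0.70 at 96 h to 2.21 at 24 h, and above that of all tested genes each time by 0.10 to 0.64. A member's highest mean was 1.37 to 3.11 times its lowest, with a median of 1.90, close to the median of 1.98 for the 8209 tested genes in the members' range of levels. The moderated F test of limma called 32 of the 39 genes changed over time, where 56.0% of all tested genes were called. The 7 not called were Polr1c, Nop58, Gar1, Nolc1, Nop14, Ddx10 and Ncl. Without all libraries numbered 1 or 2, which left 2 libraries a time, the count was 16 or 14. The share of all tested genes called in these smaller fits is not given here, so the fall cannot be ascribed to the members alone.

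**Figure D1:**
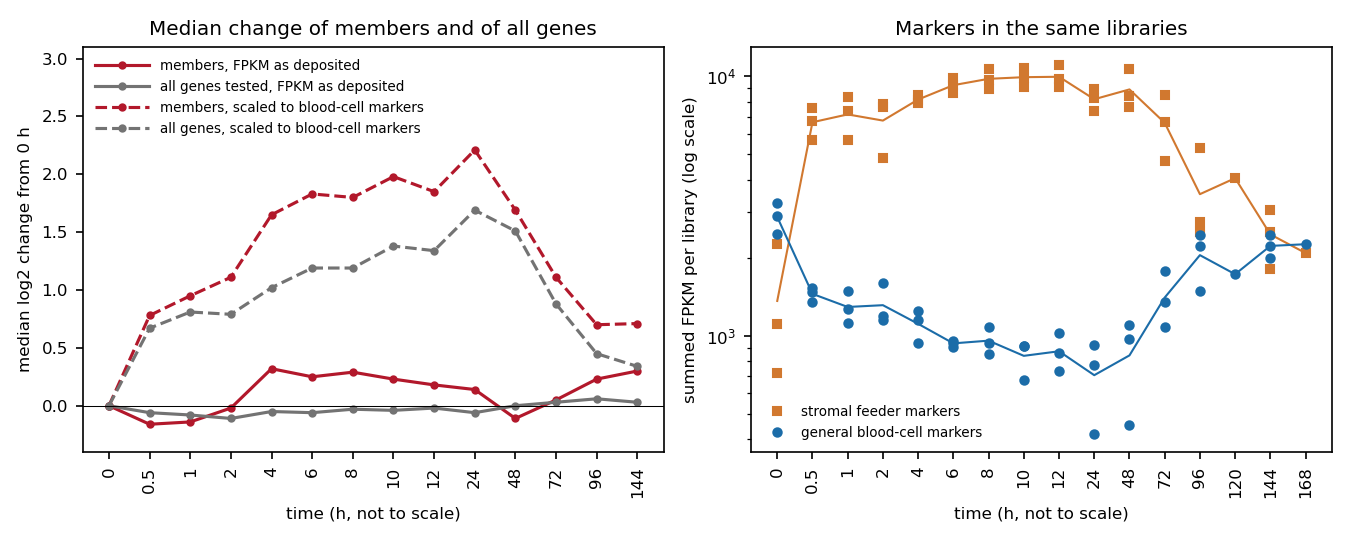
Left, the median log2 change from 0 h (y axis) of the 39 members and of all 13907 tested genes at each replicated time point (x axis, h, not to scale), with FPKM as deposited and scaled to blood-cell markers. Right, the summed FPKM (log axis) of stromal and general blood-cell markers, with 1 point per library and lines through the means. The members reached 0.32 above 0 h at 4 h and -0.11 at 48 h as deposited, while the stromal sum went from 1361 at 0 h to 9253 at 6 h.

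**Figure D2:**
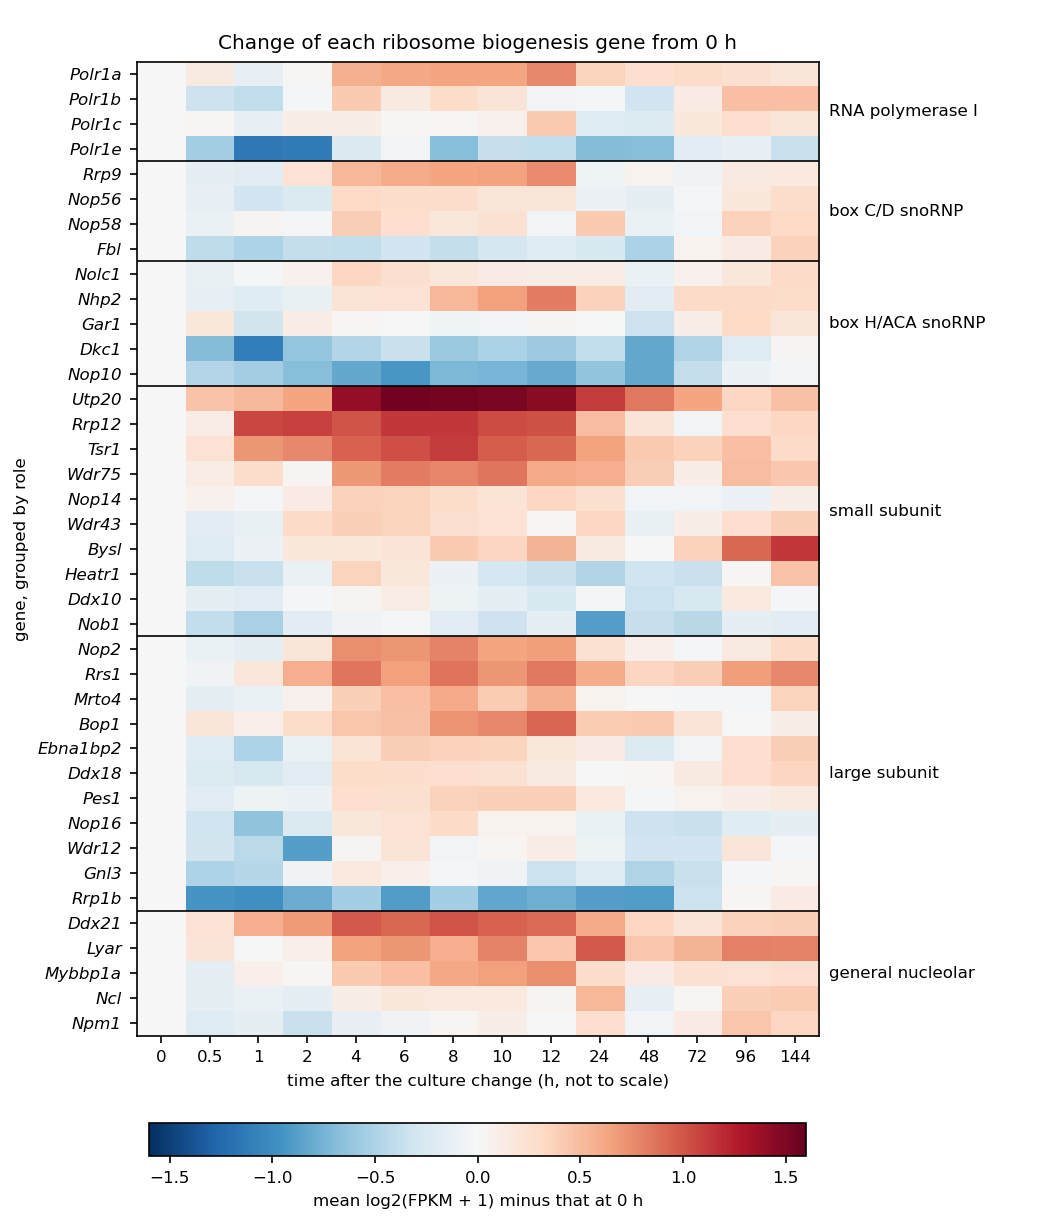
Mean log2(FPKM + 1) minus that at 0 h (colour) for each of the 39 genes (rows, grouped by role and ordered by the 6 h value) at the 14 replicated time points (columns, h, not to scale). Most rows are blue at 0.5 and 1 h, where 11 and 9 genes were above 0 h, and red from 4 to 12 h, where 27 to 32 were. Of all 13907 tested genes, 6081 were above 0 h at 1 h and 6407 at 6 h. Nop10, Rrp1b, Dkc1, Polr1e and Nob1 stay below 0 h from 0.5 to 72 h, Polr1e and Nob1 only slightly at 6 h.

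At 1 h after the culture change, 9 members had fallen, where 15.3% of all tested genes were called lower, and 4 had risen, where 16.8% were called higher. The 9 were Polr1e, Dkc1, Rrp1b, Nop16, Nop10, Nob1, Ebna1bp2, Fbl and Gnl3, at 1.37 to 2.20 times below 0 h. With scaling to blood-cell markers Polr1e stood at -0.14 (log2, not called). The other 8 turned to positive values of 0.02 to 0.68, which were below the median of all tested genes on that scale (0.81). Rrp12, Tsr1, Ddx21 and Utp20 rose by 1.43 to 2.09 times. The median change of the 39 genes was -0.14, against -0.08 for all tested genes. With median-ratio scaling the split was 5 higher and 3 lower, where 18.3% and 12.4% of all tested genes were called. Scaled to blood-cell markers, 34 were higher, where 53.3% of all tested genes were called higher on that scale. There limma called 0 members lower (0 also at an unadjusted p under 0.05), and the median was 0.95 against 0.81 for all genes. The count of 9 went to 3 without 1 h replicate 2, and to 4 without 1 h replicate 1, 0 h replicate 1 or 0 h replicate 2. Library codes in the labels fall into 6 consecutive runs, and within them the median change was -0.23 (replicate 1), -0.40 (replicate 2) and 0.13 (replicate 3), so the lower median did not hold in the run of replicate 3.

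At 6 h, 11 members had risen, where 19.0% of all tested genes were called higher, and 2 had fallen, where 19.2% were called lower. Those that rose were Utp20, Rrp12, Tsr1, Ddx21, Wdr75, Nop2, Lyar, Rrs1, Polr1a, Rrp9 and Mybbp1a, at 1.39 to 2.92 times their 0 h level. Nop10 and Rrp1b fell. Scaled to blood-cell markers both turned to positive values (0.67 and 0.59), which were below the median of all tested genes on that scale (1.19). The median change was 0.25 against -0.06 for all tested genes, with 32 of 39 members and 6407 of the 13907 tested genes above 0 h. Scaled to blood-cell markers, 38 were higher, where 70.6% of all tested genes were called higher on that scale. There limma called 0 members lower (0 also at an unadjusted p under 0.05), and the median was 1.83 against 1.19 for all genes. As deposited, the median was above 0 in each run of library codes, at 0.36, 0.19 and 0.25 for replicates 1, 2 and 3. Leaving out any one library left 9 to 11 genes higher and the same number, 2, lower. The stromal markers had all 22 tested genes called higher and the blood-cell markers all 19 called lower at this time, and their part in the members' change was not tested.

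At 24 h, 6 members were higher than at 0 h, where 20.8% of all tested genes were called higher, and 4 were lower, where 22.5% were called lower. Utp20, Lyar, Tsr1, Ddx21, Rrs1 and Wdr75 rose by 1.49 to 2.17 times. Nob1, Rrp1b, Nop10 and Heatr1 fell. Scaled to blood-cell markers all 4 turned to positive values of 1.13 to 1.51 (log2), which were below the median of all tested genes on that scale (1.69). The median was 0.14 against -0.06 for all tested genes. Scaling to blood-cell markers gave 39 higher, where 79.4% of all tested genes were called higher, with a median of 2.21 against 1.69. Median-ratio scaling gave 8 higher and 3 lower, where 22.7% and 20.3% of all tested genes were called. Without 24 h replicate 3, the library with the fewest blood-cell transcripts, 6 were higher and 2 lower, and without 0 h replicate 1 there were also 2 lower.

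At 72 h, Utp20 alone was called against 0 h, where 17.2% of all tested genes were called higher and 8.23% lower. limma called 0 members lower. At an unadjusted p under 0.05, 1 was lower and 5 higher, with no share of all tested genes given at that threshold. Quantile normalization gave 2 called lower and median-ratio scaling 1, where 13.3% and 10% of all tested genes were called lower. A fit with library-code run as a term gave 4 lower, with no share of all tested genes given. The median change was 0.05 against 0.03 for all tested genes, with 0.00 under median-ratio scaling and -0.09 under quantile normalization. Scaled to blood-cell markers, 37 were higher, where 59.4% of all tested genes were called higher, with a median of 1.11 against 0.88. The 72 h and 0 h libraries share no run of library codes, so no within-run value could be had.

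By 144 h, when B-lineage markers summed to 1320 ± 194 FPKM against 110 ± 21.3 at 0 h, Bysl, Lyar and Rrs1 were above 0 h, where 5.64% of all tested genes were called higher and 3.24% lower. limma called 0 members lower. At an unadjusted p under 0.05, 0 were lower and 12 higher, and the share of all tested genes at that threshold is not given here. Above 0 h lay 33 of 39 members and 7448 of the 13907 tested genes. The median change was 0.30 against 0.03 for all tested genes. Scaled to blood-cell markers it was 0.71 against 0.34, and 3 members were called higher, where 3.71% of all tested genes were. As deposited, the count of 3 was 1 without 144 h replicate 2 or without 0 h replicate 2, and 6 without 144 h replicate 3. With library-code run as a term the calls of Lyar and Rrs1 were lost and that of Bysl was kept. The 144 h and 0 h libraries share no run of library codes.

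From 24 to 72 h, Wdr75 fell, where 2.80% of all tested genes were called lower, and limma called 0 higher, where 7.60% were. At an unadjusted p under 0.05, 2 members were higher and 5 lower, with no share of all tested genes given at that threshold. The median was -0.10 against 0.11 for all tested genes. The same comparison scaled to blood-cell markers gave 35 lower, where 51.9% of all tested genes were called lower, with a median of -1.15 against -0.79. With library-code run as a term 9 members were lower, Wdr75 not among them, with no share of all tested genes given. Quantile normalization gave 2 lower and median-ratio scaling 3, where 5.29% and 4.64% of all tested genes were called lower. As deposited, the count was 0 without 72 h replicate 2 or 24 h replicate 1, and 3 without 24 h replicate 2. Only replicate 3 had both times in one run of library codes, and there the median was 0.08 against 0.25 for all tested genes. From 72 to 144 h, Heatr1 and Bysl rose, where 2.90% of all tested genes were called higher, and limma called 0 lower (0 also at an unadjusted p under 0.05), where 7.86% of all genes were. Above their 72 h level lay 33 of 39 members and 6520 of the 13907 tested genes. The members' median was 0.27 against -0.02 for all tested genes, and within runs it was 0.22, 0.55 and -0.03 for replicates 1, 2 and 3. Scaled to blood-cell markers it turned to -0.36 against -0.54 for all genes. On that scale no member was called, where 22.5% of all tested genes were called lower. At an unadjusted p under 0.05, 6 members were lower, with no share of all tested genes given at that threshold. The count of 2 was 0 without 144 h replicate 2, 1 without 144 h replicate 1 or 72 h replicate 3, and 4 without 144 h replicate 3.

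Among the RNA polymerase I genes, 1 of 4 was called at 1 h (lower) and 1 of 4 at 6 h (higher). Polr1a, the largest catalytic subunit, measured 9.32, 11.7 and 13.1 FPKM in the 0 h libraries and 18.0, 18.1 and 17.6 FPKM at 6 h. All 6 h values lay above all 0 h values, a rise of 0.62 ± 0.16 (log2, SE) with an adjusted p of 0.00309. Polr1e, a subunit that associates with the enzyme for initiation, measured 7.82, 12.1 and 9.20 FPKM at 0 h and 1.85, 3.43 and 7.73 FPKM at 1 h. The groups were apart by a narrow margin, and the fall of 1.14 on the log2 scale (SE 0.30, adjusted p 0.00409) lost its call without 1 h replicate 1 and was -0.14 when scaled to blood-cell markers. By 6 h Polr1e was back at 9.24 ± 0.931 FPKM. Polr1b, the second largest subunit, was highest at 96 h with 20.5 FPKM and passed the F test but no single comparison. Polr1c, which RNA polymerase III also uses, was at 41.0 ± 3.37 FPKM at 0 h and 41.7 ± 2.59 at 6 h, and its 24 h libraries ranged from 13.8 to 56.4 FPKM, the low one being replicate 3.

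Box C/D particles carry Nop56, Nop58 and the methyltransferase Fbl, and Rrp9 belongs to the U3 particle that is needed for the first cuts. Fbl measured 213, 227 and 176 FPKM at 0 h and 150, 124 and 163 FPKM at 1 h. The 1 h values lay below all 0 h values, a change of -0.49 ± 0.16 (adjusted p 0.0167) that lost its call without 1 h replicate 2, 0 h replicate 1 or 0 h replicate 2 and with median-ratio scaling, and was 0.67 when scaled to blood-cell markers. Rrp9 rose from 31.4, 29.8 and 27.5 FPKM at 0 h to 40.5, 48.9 and 46.3 FPKM at 6 h, by 0.59 ± 0.23 (adjusted p 0.0426). This call was kept in 1 of 6 fits that left out a library, being lost without 6 h replicates 2 or 3 or any 0 h library, and with no filter. Nop56 passed the F test and no single comparison, with 172 ± 19.8 FPKM at 0 h, 141 ± 30.2 at 1 h and 210 ± 24.2 at 6 h. Nop58 stayed between means of 102 and 151 FPKM.

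In box H/ACA particles Dkc1 is the pseudouridine synthase, with Nhp2, Nop10 and Gar1 as its partners and Nolc1 as an assembly chaperone. Dkc1 measured 45.8, 35.4 and 38.6 FPKM at 0 h and 17.6, 14.5 and 22.6 FPKM at 1 h, with no overlap. Its fall at 1 h was 1.10 on the log2 scale (SE 0.25, adjusted p 8.54e-04), kept whichever library was left out. Scaled to blood-cell markers Dkc1 stood at 0.02 above 0 h, against 0.81 for the median of all tested genes. At 6 h it stood at 30.8 ± 3.29 FPKM and at 144 h at 42.6 ± 13.9 FPKM. Nop10 took a course of its own, with the lowest correlation to the mean of the other members (r = -0.20 over 14 time-point means, a description that shares libraries and depth). It measured 209, 198 and 143 FPKM at 0 h and 107, 92.7 and 85.7 FPKM at 6 h. All 6 h libraries lay below all 0 h libraries, a change of -0.93 ± 0.21 (adjusted p 7.78e-04), which was 0.67 when scaled to blood-cell markers. Its 1 h call (-0.56) was lost without any one 1 h library or 0 h replicate 1 or 2 and with no filter or median-ratio scaling, and its 24 h call (-0.64) without 24 h replicate 3 or 0 h replicate 1 or 2, and at 24 h its libraries overlapped those at 0 h. Nhp2 was highest at 12 h with 226 ± 23.0 FPKM, against 128 ± 18.2 at 0 h, and passed the F test but none of the 7 comparisons, which left out 12 h. Gar1 and Nolc1 were called nowhere, with highest means 1.57 and 1.37 times their lowest.

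The 10 small subunit genes held the largest rises, with 3 higher and 1 lower at 1 h, 4 higher and 0 lower at 6 h, and 3 higher and 2 lower at 24 h. Utp20, a scaffold protein of the precursor of the small subunit, measured 7.51, 7.84 and 10.9 FPKM at 0 h and 27.1, 27.9 and 26.4 FPKM at 6 h. The rise of 1.55 ± 0.17 (2.92 times, adjusted p 2.40e-08) was the largest of any member in the 7 comparisons with FPKM as deposited. It was still above 0 h at 24 h with 21.0, 20.8 and 17.9 FPKM (1.12 ± 0.17, adjusted p 4.43e-06) and at 72 h with 12.9, 13.4 and 15.7 FPKM (0.63 ± 0.17, adjusted p 0.00653). Its smaller 1 h call (0.52 ± 0.17, adjusted p 0.0215) was lost without 1 h replicates 2 or 3 or 0 h replicates 1 or 2. In the single 168 h library it was at 8.73 FPKM.

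Tsr1, a GTPase-like factor of late small subunit maturation, measured 19.1, 24.3 and 22.2 FPKM at 0 h, 34.3, 36.8 and 37.5 FPKM at 1 h and 52.9, 51.0 and 35.0 FPKM at 6 h. It was above 0 h without overlap at both times, by 0.71 ± 0.17 (adjusted p 0.00166) and 1.03 ± 0.17 (adjusted p 1.08e-05), and by 0.65 ± 0.17 at 24 h. Rrp12, which takes part in the export of both subunits, measured 6.15, 5.00 and 7.48 FPKM at 0 h, 12.9, 11.1 and 18.8 FPKM at 1 h and 13.1, 13.6 and 17.6 FPKM at 6 h. The rise was 1.06 ± 0.27 at 1 h (adjusted p 0.00332) and 1.13 ± 0.27 at 6 h (adjusted p 0.00136), and at 72 h its mean was 6.03 FPKM. Wdr75, part of the complex that binds the precursor while it is copied, rose from 25.5, 23.8 and 27.6 FPKM at 0 h to 56.9, 44.4 and 38.1 FPKM at 6 h (0.82 ± 0.14, adjusted p 2.65e-05). It was 48.1, 36.6 and 33.1 FPKM at 24 h and 24.7, 27.9 and 30.7 FPKM at 72 h, where the fall from 24 h was called (-0.47 ± 0.14, adjusted p 0.0304) and was lost without 24 h replicate 1, 72 h replicate 1 or 72 h replicate 2 and with library-code run as a term (-0.35, adjusted p 0.116).

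Other small subunit genes kept other times. Nob1, the nuclease that makes the last cut of 18S RNA, measured 43.9, 35.7 and 43.6 FPKM at 0 h, 40.2, 36.3 and 43.3 FPKM at 6 h and 24.9, 31.2 and 12.95 FPKM at 24 h. It overlapped 0 h at 6 h and fell at 24 h by 0.89 on the log2 scale (SE 0.20, adjusted p 4.75e-04), a change of -0.53 without 24 h replicate 3, still called, and 1.19 when scaled to blood-cell markers. Its 1 h call (-0.52, and 0.60 when scaled) was lost without 1 h replicates 1 or 2 or 0 h replicates 1 or 3, and with no filter or median-ratio scaling. Bysl (bystin), which is needed for small subunit maturation, changed late. It measured 13.1, 15.3 and 12.3 FPKM at 0 h, 16.7, 19.1 and 17.7 FPKM at 72 h and 29.7, 38.2 and 25.4 FPKM at 144 h. Its 144 h libraries lay above all others of these 3 times, and the rise from 0 h was 1.13 ± 0.17 (adjusted p 1.86e-05), kept whichever library was left out and at 1.47 when scaled to blood-cell markers. From 72 to 144 h it rose by 0.75 ± 0.17 (adjusted p 0.0038), which was not called without 144 h replicate 2 (0.60) or when scaled to blood-cell markers (0.12).

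Heatr1, a partner of Wdr75 in that early complex, measured 9.29, 9.05 and 7.24 FPKM at 72 h and 19.7, 17.5 and 10.9 FPKM at 144 h. The rise of 0.81 ± 0.19 (adjusted p 0.00705) was lost without 144 h replicate 1, 144 h replicate 2 or 72 h replicate 3, and was 0.20 when scaled to blood-cell markers. Its lower level at 24 h (7.79 ± 1.59 against 11.2 ± 1.21 FPKM at 0 h, adjusted p 0.0438) lost its call with no filter, quantile normalization, median-ratio scaling or the run term and without 24 h replicate 2 or 3 or 0 h replicate 1 or 3. Scaled to blood-cell markers Heatr1 was 1.44 above 0 h at 24 h, against 1.69 for the median of all tested genes. Wdr43, of the same complex, passed the F test and no single comparison, with 39.9 ± 4.91 FPKM at 0 h and 51.1 ± 3.90 at 6 h. The scaffold protein Nop14 and the helicase Ddx10 were called nowhere, at 25.6 to 35.3 and 15.0 to 21.4 FPKM over the time-point means.

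**Figure D3:**
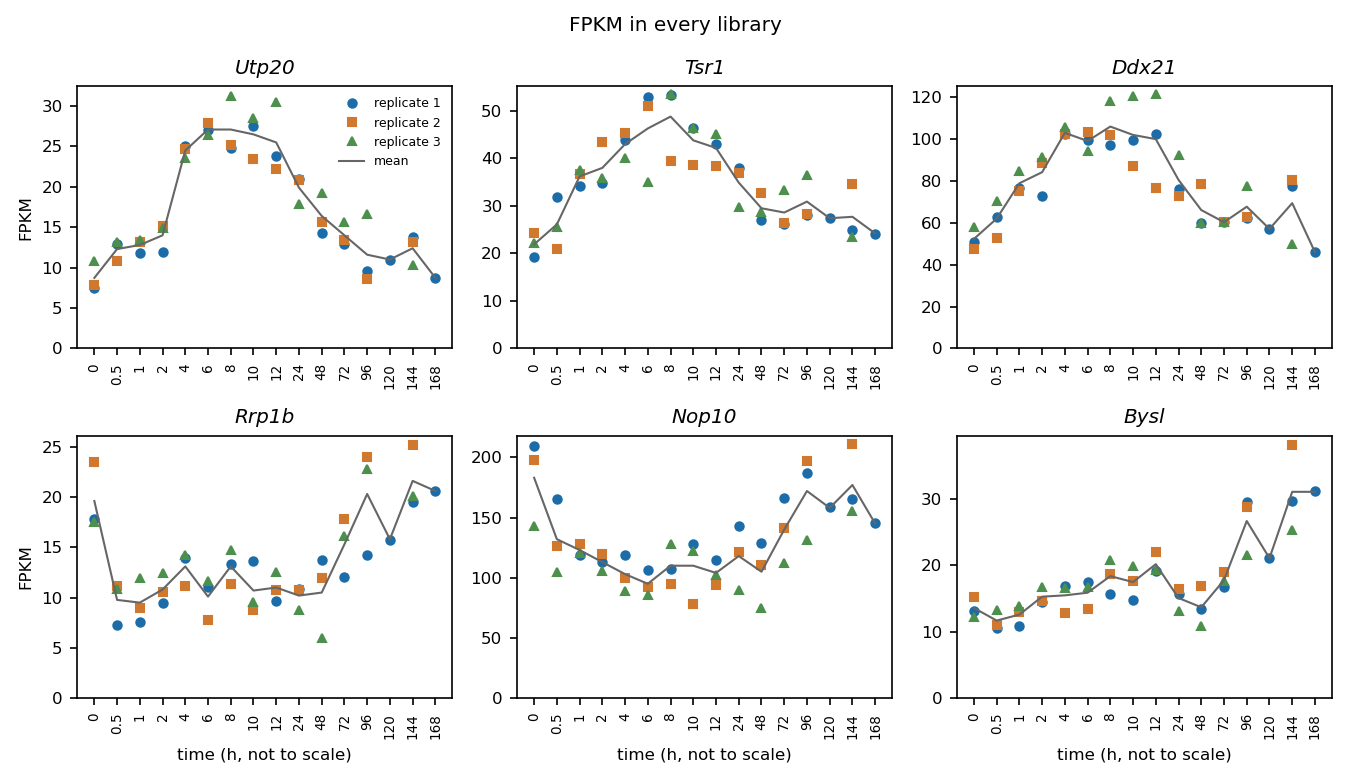
FPKM (y axis, from 0) in every library at the 16 time points (x axis, h, not to scale) for 6 genes, with symbols for replicates and a grey line through the means; 120 and 168 h have 1 library each. Utp20, Tsr1 and Ddx21 are high from 4 to 12 h, Rrp1b and Nop10 are low between 0.5 and 48 h, and Bysl is highest at 144 h.

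Of the 11 large subunit genes, 4 were lower and 0 higher at 1 h, and 2 were higher and 1 lower at 6 h. Rrp1b, a nucleolar protein related to a yeast 60S assembly factor, measured 17.8, 23.5 and 17.5 FPKM at 0 h, 7.58, 8.98 and 11.9 FPKM at 1 h, 11.0, 7.76 and 11.6 FPKM at 6 h and 10.9, 10.8 and 8.80 FPKM at 24 h. No library of these 3 later times reached the 0 h range. The changes were -0.98 ± 0.23, -0.89 ± 0.23 and -0.88 ± 0.23 (adjusted p 0.00166, 0.00283 and 0.00286), kept whichever library was left out, and 0.10, 0.59 and 1.13 when scaled to blood-cell markers. Its mean was 21.6 ± 3.08 FPKM at 144 h, inside the 0 h spread. Rrs1, which brings the 5S RNA to the large subunit, measured 35.1, 24.3 and 28.9 FPKM at 0 h, 45.0, 49.0 and 45.5 FPKM at 6 h and 43.99, 61.5 and 47.2 FPKM at 144 h. It was apart from 0 h at both times, by 0.65 ± 0.18 (adjusted p 0.0048) and 0.77 ± 0.18 (adjusted p 0.00606). The 144 h call was lost without 144 h replicate 2 or 0 h replicate 2 and with library-code run as a term (0.54, adjusted p 0.0991), and its 24 h call (0.60 ± 0.18) without 0 h replicate 2.

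Nop2, a methyltransferase of the large subunit RNA, rose from 31.4, 26.1 and 33.8 FPKM at 0 h to 46.6, 51.1 and 53.0 FPKM at 6 h (0.71 ± 0.21, adjusted p 0.00656). At 72 h its libraries spread from 20.1 to 41.8 FPKM, which covers the 0 h range. Nop16, Ebna1bp2 and the stem-cell nucleolar GTPase Gnl3 were called lower at 1 h only, by 0.46 to 0.65 on the log2 scale as deposited. Scaled to blood-cell markers they stood at 0.45 to 0.68 above 0 h, against 0.81 for the median of all tested genes. The call of Nop16 was lost without 1 h replicates 1 or 2 or 0 h replicates 2 or 3, that of Ebna1bp2 without 1 h replicate 2 or 0 h replicates 1 or 2, and that of Gnl3 without 5 of the 6 libraries in turn. All 3 were lost with median-ratio scaling, Nop16 and Gnl3 with no filter, and Nop16 with quantile normalization. Ebna1bp2 had the highest correlation with the other members (r = 0.95 over 14 time-point means). Pes1, Bop1 and Wdr12 work as one complex in large subunit assembly. All 3 passed the F test and no single comparison, and no comparison was made at 2 or 12 h. Pes1 averaged 56.4 ± 12.5 FPKM at 0 h and 73.2 at 12 h, Bop1 36.0 ± 5.68 and 70.4, and Wdr12 went from 22.8 ± 2.93 FPKM to 11.9 after 2 h and 26.8 ± 4.10 after 6 h. The helicase Ddx18 and Mrto4, a place-holder for the ribosomal stalk, also passed the F test and no single comparison, with highest means 1.54 and 1.68 times their lowest.

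Among the general nucleolar proteins, 3 of 5 were higher at 6 h and 2 of 5 at 24 h, and none was called lower in any comparison with 0 h. The helicase Ddx21, which acts both on ribosomal DNA transcription and on precursor processing, measured 51.0, 47.6 and 58.2 FPKM at 0 h, 76.9, 74.97 and 84.8 FPKM at 1 h and 99.6, 104 and 94.1 FPKM at 6 h. The groups were apart, with rises of 0.59 ± 0.16 (adjusted p 0.00623) and 0.91 ± 0.16 (adjusted p 4.14e-05), and 0.61 ± 0.16 at 24 h (adjusted p 0.00301). At 72 h it was 60.2, 60.2 and 60.5 FPKM and not called. Lyar, a nucleolar zinc finger protein of dividing cells, measured 45.6, 39.3 and 36.5 FPKM at 0 h, 79.6, 58.0 and 62.8 FPKM at 6 h, 64.0, 57.3 and 141 FPKM at 24 h and 62.8, 105 and 53.0 FPKM at 144 h. Each of these times lay above 0 h without overlap. The 24 h rise was 0.98 ± 0.24 (adjusted p 0.00123) with all libraries and 0.58, still called, without 24 h replicate 3. The 6 h call (0.70) was lost without 6 h replicate 1 or 0 h replicates 2 or 3, and the 144 h call (0.79) was lost without 144 h replicate 2 or any 0 h library and with median-ratio scaling, blood-cell scaling or library-code run as a term (0.32, adjusted p 0.548).

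Mybbp1a, a nucleolar protein that binds RNA polymerase I, rose from 95.8, 114 and 98.7 FPKM at 0 h to 152, 152 and 127 FPKM at 6 h (0.48 ± 0.16, adjusted p 0.0142), a call lost without 6 h replicates 1 or 2 or 0 h replicate 1. Nucleolin (Ncl) measured 173, 176 and 148 FPKM at 0 h and 211, 149 and 441 FPKM at 24 h, where replicate 3 was far above the other two. Npm1 passed the F test and no single comparison, with 1332 ± 216 FPKM at 0 h, 1283 ± 236 at 6 h and 1705 ± 458 at 144 h.

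A further 72 ribosome biogenesis genes, none of them members, were counted in the same fit, with Nop9 not analysed here. At 6 h 12 were higher (16.7%, where 19.0% of all tested genes were) and 2 lower (2.78%, where 19.2% were), with a median of 0.19 against -0.06. At 1 h 4 were higher (5.56%, where 16.8% were) and 7 lower (9.72%, where 15.3% were), with a median of -0.13 against -0.08. The largest rise was that of Pwp2, another scaffold protein of the small subunit precursor, from 6.997 to 26.5 FPKM at 6 h (1.81 ± 0.20, adjusted p 1.85e-08). Noc3l (0.90 ± 0.19), Ftsj3 (0.87 ± 0.15) and Brix1 (0.84 ± 0.17), all of the large subunit, rose at the same time. Ddx47 fell at 1, 6 and 24 h (-0.78 ± 0.19, -0.52 ± 0.19 and -0.77 ± 0.19) as deposited. Scaled to blood-cell markers Ddx47 stood at 0.36, 1.04 and 1.32, against 0.81, 1.19 and 1.69 for the median of all tested genes. Its 6 h call was lost without 6 h replicate 1 or 0 h replicate 1 or 2. These 5 were singled out after their values were seen. At 24 h 10 were higher (13.9%, where 20.8% of all tested genes were) and 6 lower (8.33%, where 22.5% were) with a median of -0.03, at 72 h 1 higher (1.39%, where 17.2% were) and 2 lower (2.78%, where 8.23% were) with a median of 0.00, and at 144 h 2 were higher (2.78%, where 5.64% were) and limma called 0 lower (0 also at an unadjusted p under 0.05, where 11 were higher) with a median of 0.16. From 24 to 72 h 1 was higher (1.39%, where 7.60% were) and 4 lower (5.56%, where 2.80% were), and from 72 to 144 h 2 were higher (2.78%, where 2.90% were) and limma called 0 lower (0 also at an unadjusted p under 0.05). Scaled to blood-cell markers, 61, 72, 72 and 64 were higher at 1, 6, 24 and 72 h, where 53.3%, 70.6%, 79.4% and 59.4% of all tested genes were. For the counts at an unadjusted p under 0.05, the share of all tested genes is not given here. The comparisons with 0 h share the 0 h libraries with each other.

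Myc itself was at 67.6 ± 17.6 FPKM at 0 h and 61.1 ± 2.42 at 6 h, not called at 1, 6, 24 or 72 h, and 139 ± 52.3 at 144 h (0.98 ± 0.27, adjusted p 0.0164), a rise not called without 144 h replicate 2 or 3 or 0 h replicate 1. Scaled to blood-cell markers Myc was 1.46 above 0 h at 6 h (adjusted p 0.00126), where the median of all tested genes was 1.19 and 70.6% were called higher. Its paralog Mycn fell from 93.5 ± 6.90 FPKM at 0 h to 7.25 ± 4.98 at 6 h (-3.69 ± 0.57, adjusted p 4.57e-06; -2.15 when scaled).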

How the data were processed

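The deposited table gives FPKM per gene and library, made by the authors with TopHat2 2.1.0 and Cufflinks 2.1.1 on build mm9, per the submitters' processing notes. The word "corrected" stands in the table's name, but its meaning is not given in the sources used here, nor how shared fragments or strand were treated. Depth is unknown, since no counts are held.

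Values were taken as log2(FPKM + 1). Only the 14 time points with replicates (42 libraries) were fitted, over the 13907 genes that reached 1 FPKM in 3 or more of these libraries. limma 3.58.1 in R 4.3.3 fitted 1 mean per time point (28 residual degrees of freedom, eBayes with trend), and p-values were adjusted by Benjamini-Hochberg over all tested genes. Calls needed an adjusted p under 0.05. With 3 against 3 libraries the smallest p a permutation allows is 0.1, so tests of single genes rest on the model. The scripts were tested on simulated data with 200 changed genes. For 6 h against 0 h, 61 of 100 changes of 2 times and 94 of 100 of 4 times were recovered. For 144 h against 72 h these were 69 and 94. The simulation held far fewer changed genes than the 5301 called in the data at 6 h against 0 h, and its changed genes were not the members. Its shares are therefore no estimate of how many changed members were recovered. A member not called may still have changed. Errors are SD for FPKM and SE for log2 changes.

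The 7 comparisons set 1, 6, 24, 72 and 144 h against 0 h, then 72 h against 24 h and 144 h against 72 h. Alternatives were a pseudocount of 0.1, no filter, a filter at 5 FPKM, quantile normalization, median-ratio scaling, scaling to 19 blood-cell markers, a replicate block, library-code run as a term and leaving out each library. Members described in full, per role, were the 2 most abundant at 0 h, the largest called change in each comparison, those called against the majority, and the 2 with the lowest correlation with the others. Remaining members were added for completeness, and the 6 genes plotted by library and the further genes named were picked after their values were seen. The members, lists, rule and comparisons were chosen with earlier results of these data known. Promoter sequences are from RefSeq.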

Additional observations from a re-analysis of the deposited data

Results flagged for a closer look

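In the single 168 h library, which no comparison used, Bysl was at 31.1 FPKM and Lyar at 76.8 FPKM, each at least 1.5 times the highest 0 h library. Of the 39 genes, 11 lay above and 11 below the range of the 0 h libraries at 168 h, with 17 inside it, and at 120 h 19 lay above, 7 below and 13 inside. The share of all tested genes outside the 0 h range is not given here, so these counts are no result about the members. With 1 library at each time there is no replicate check.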

How the results depend on the processing

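Of 43 member calls, 24 were kept whichever single library was left out, and 19 were lost in at least 1 such fit, with no change of direction. The pseudocount of 0.1, the filter at 5 FPKM and the replicate block kept all 43. Calls were lost for 8 with median-ratio scaling, 6 with no filter, 4 with library-code run as a term and 2 with quantile normalization, and scaling to blood-cell markers lost 4 and reversed 14. The table limits these results by its lack of counts and by 3 libraries a time, in which calls near the threshold come and go.

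Scaling to blood-cell markers changed most counts. Of all tested genes, 53.3%, 70.6%, 79.4% and 59.4% were called higher on this scale at 1, 6, 24 and 72 h. From 24 to 72 h 51.9% were called lower, and from 72 to 144 h 22.5%. Members higher went to 34, 38, 39 and 37 at 1, 6, 24 and 72 h and 0 from 72 to 144 h, and members lower to 0 at 1, 6 and 24 h and 35 from 24 to 72 h. The further genes went to 61, 72, 72 and 64 higher and 0 lower at 1, 6, 24 and 72 h, to 0 higher and 61 lower from 24 to 72 h, and to 0 higher and 7 lower from 72 to 144 h. The changes that turned positive at 1 h were Fbl 0.67, Dkc1 0.02, Nop10 0.60, Nob1 0.60, Nop16 0.45, Rrp1b 0.10, Ebna1bp2 0.61 and Gnl3 0.68. Those at 6 h were Nop10 0.67 and Rrp1b 0.59, and those at 24 h were Nop10 1.51, Heatr1 1.44, Nob1 1.19 and Rrp1b 1.13. All of these were below the median of all tested genes on this scale, which was 0.81, 1.19 and 1.69 at 1, 6 and 24 h. By construction this scaling raises every gene of libraries with low blood-cell markers, and what sets that marker level was not tested.

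Other settings moved small counts, and the cause was not tested. From 24 to 72 h, 5.29% (quantile) and 4.64% (median-ratio) of all tested genes were called lower, against 2.80% as deposited. For no filter, the pseudocount of 0.1, the replicate block and the run term, such shares are not given here. Members lower at 1 h were 5 with no filter and 3 with median-ratio scaling. Members lower at 72 h were 2 with quantile normalization, 1 with median-ratio scaling and 4 with library-code run as a term, and from 24 to 72 h they were 2, 3 and 9. Further genes lower at 1 h were 3 with median-ratio scaling. At 6 h those lower were 1 with no filter, quantile normalization or median-ratio scaling and 4 with the run term. At 72 h those lower were 5 with quantile normalization, 4 with median-ratio scaling and 10 with the run term. At 144 h 1 was higher with quantile normalization and 1 lower with the run term. From 24 to 72 h 0 were higher with quantile normalization or median-ratio scaling and 3 with the run term, and 9, 9 and 13 were lower. From 72 to 144 h those higher were 1 with a pseudocount of 0.1 or no filter, 4 with quantile normalization and 5 with the run term.

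Same-numbered libraries correlated weakly, and a weak pairing is not excluded. Their r was 0.08, 0.11 and 0.08 for 1 h against 0 h, and 0.09, 0.11 and 0.14 for 144 h against 0 h. For 144 h against 72 h it was 0.06, -0.06 and 0.06. Of 21 same-number pairs, 7 correlated at r over 0.1 (range -0.06 to 0.14), and 0 comparisons had all 3 above it. With a replicate block, members lower from 24 to 72 h were 2, and the further genes were 2 higher and 4 lower at 72 h and 4 higher from 72 to 144 h.

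Leaving out 1 library gave ranges. The shares of all tested genes called in these fits are not given here. Members changed over time were 14 to 27 without the libraries of 1 replicate number. At 1 h members higher were 3 to 4 and lower 3 to 9, at 6 h 9 to 11 and 2 to 2, at 24 h 5 to 9 and 2 to 5, at 72 h 1 to 1 and 0 to 1, and at 144 h 1 to 6 and 0 to 0. From 24 to 72 h they were 0 to 1 and 0 to 3, and from 72 to 144 h 0 to 4 and 0 to 0. The single members lower at 72 h and higher from 24 to 72 h appeared without 72 h replicate 1 and without 24 h replicate 2. The further genes were 2 to 4 higher and 2 to 9 lower at 1 h, 8 to 13 and 0 to 3 at 6 h, 6 to 11 and 4 to 9 at 24 h, 1 to 1 and 1 to 5 at 72 h, 0 to 3 and 0 to 0 at 144 h, 0 to 3 and 1 to 7 from 24 to 72 h, and 0 to 6 and 0 to 0 from 72 to 144 h. Where an arm keeps 2 libraries, the fit pools the spread over all times.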
